A study of Mus musculus with 20 samples.

Results

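The genes described here switch MAP kinase signalling off or respond to it, and were followed in fasted mouse liver. They are the dual-specificity phosphatases Dusp1, Dusp4, Dusp6, Dusp8 and Dusp10, and the immediate early genes Egr1, Fos, Jun, Junb and Myc. They were taken by symbol and make up 10 of the 56748 genes in the deposited count table. All 10 had enough reads to be tested. The set was chosen by a measured value, the higher level of Dusp8 in livers lacking Cpt1a and Cpt1b than in controls, so the comparison of those livers with controls is given for every gene as values without a test. The same holds for Dusp8 wherever the control or the Cpt1a and Cpt1b deleted livers take part.

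Livers came from mice fasted for 24 h, in 5 groups of 4 RNA sequencing libraries. Control mice carried floxed Cpt1a, Cpt1b and Cpt2 alleles. Cpt1DKO livers lacked CPT1A and CPT1B, Cpt2KO livers lacked CPT2, TKO livers lacked all 3 enzymes, and Cpt2PparaDKO livers lacked CPT2 and the nuclear receptor PPARα, each by liver-specific knockout. CPT1 and CPT2 are the outer and inner membrane enzymes that move long-chain fatty acids into mitochondria as carnitine esters, and PPARα switches on the genes for burning fat during fasting. The labels do not name the promoter that drove Cre, list no floxed Ppara allele for the controls, and leave unsaid if each library is a separate animal. The p-values therefore measure how far libraries spread, and some of that spread may be technical.

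MAP kinases (ERK, JNK and p38) are switched on by phosphorylation of a threonine and a tyrosine, and dual-specificity phosphatases remove both phosphates. DUSP6 acts in the cytoplasm and prefers ERK, DUSP8 and DUSP10 prefer JNK and p38, and DUSP1 and DUSP4 are nuclear enzymes whose genes are themselves induced by MAP kinase signalling. Immediate early genes are transcribed within minutes of a signal without new protein synthesis. FOS pairs with JUN or JUNB in the transcription factor AP-1, EGR1 is a zinc finger factor, and MYC drives growth and biosynthesis genes. In liver these genes respond to feeding, injury and regeneration.

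Levels are given in CPM, read counts scaled to library size, and fold changes are log2 differences in which the first-named group stands above the second when the value is positive. Library totals ran from 14129595 to 20273303 counts in 19 libraries and reached 36452673 in Cpt2PparaDKO replicate 1. Cpt1a averaged 1038 CPM in Control, 155 in Cpt1DKO and 137 in TKO. Cpt2 averaged 249 CPM in Control, 131 in Cpt2KO, 103 in TKO and 33.9 in Cpt2PparaDKO, and Ppara 233 in Control against 73.2 in Cpt2PparaDKO. In Cpt1DKO, Cpt2 stood at 284, 298 and 302 CPM in replicates 1, 3 and 4 but at 147 CPM in the library labelled Cpt1DKO replicate 2, within the range of Cpt2KO (114 to 165 CPM). Cpt1a in that library was 146 CPM, as low as in the rest of its group, so its Cpt2 level went against its label, and results that use the Cpt1DKO group are given with and without it. Cpt1b was barely transcribed and not lower where it was targeted, at 0.543 CPM in Control, 0.881 in Cpt1DKO and 2.80 in TKO. The 7 hepatocyte markers measured, among them Alb and Apob, were abundant in every library, with summed levels of 84041 to 104832 CPM in Control and 36972 to 42257 CPM in Cpt2PparaDKO. In bulk tissue, fewer cells of a type and less RNA per cell cannot be told apart. Xist, transcribed in female cells, was at 981 CPM in replicate 3 of Cpt2KO, at 1266 CPM in replicate 4 of Cpt2PparaDKO and at most 1.05 CPM elsewhere. Results that change without these female libraries are given both ways.

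The 250 bases before the RefSeq start site were matched by symbol for 7 of the 10 genes. They were searched on both strands for the cyclic AMP response element TGACGTCA, the E-box CACGTG, the AP-1 site TGANTCA, the EGR site GCGNGGGCG, the amino acid response element TGATGNAA, the CArG box and the PPAR-type repeat DR1. Dusp8 and Dusp1 were the only ones of the 7 with a match, and they are shown for that and because the set was chosen around Dusp8. Coordinates are those of GRCm38.p6, on the minus strand, at chr7:142095285-142095534 for Dusp8 and chr17:26508473-26508722 for Dusp1. Capitals mark the matches, and no 2 motifs overlap.
Dusp8: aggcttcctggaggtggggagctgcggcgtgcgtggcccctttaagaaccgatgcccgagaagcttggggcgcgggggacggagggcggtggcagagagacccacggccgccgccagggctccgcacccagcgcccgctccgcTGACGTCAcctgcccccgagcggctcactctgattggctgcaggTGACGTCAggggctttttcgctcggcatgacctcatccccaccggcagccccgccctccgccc
Dusp1: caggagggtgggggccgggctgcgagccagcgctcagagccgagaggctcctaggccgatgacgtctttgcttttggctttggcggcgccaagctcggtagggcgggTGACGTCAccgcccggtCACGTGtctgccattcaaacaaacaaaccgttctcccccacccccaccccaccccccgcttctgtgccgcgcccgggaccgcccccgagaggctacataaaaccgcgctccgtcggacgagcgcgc
Dusp8 held 2 copies of TGACGTCA, at 107 to 100 and 63 to 56 bases before the start. Dusp1 held 1 copy, at 143 to 136 bases, followed by CACGTG at 126 to 121 bases. Of 32851 windows of this length, 1.55% held TGACGTCA and 6.02% held CACGTG. A match describes the sequence and says nothing of whether a factor was bound.

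Dusp8 was nearly silent in Control liver and moderately transcribed in every knockout. It stood at 1.11, 1.76, 0.97 and 0.88 CPM in the Control libraries, which is 14 to 26 reads each, and at 24.2, 27.1, 3.51 and 8.96 CPM in Cpt1DKO. It stood at 22.0, 32.8, 30.2 and 11.4 CPM in Cpt2KO, at 29.5, 19.1, 15.4 and 16.6 in TKO and at 18.6, 12.8, 7.34 and 8.46 in Cpt2PparaDKO. Every knockout library lay above every Control library, the nearest being Cpt1DKO replicate 3. The difference from Control was 3.76 (SE 0.60) on the log2 scale in Cpt1DKO, 4.36 for Cpt2KO, 4.10 for TKO and 3.34 for Cpt2PparaDKO, all against the same 4 Control libraries. These values describe the gene and carry no test, since its Control libraries chose it. The spread within Cpt1DKO was wide, with a standard deviation of 11.5 CPM around a mean of 15.9 CPM, and leaving out single libraries moved the log2 value between 3.38, without the library labelled Cpt1DKO replicate 2, and 4.09.

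By mean level Dusp8 ran from Cpt2KO (24.1 CPM) through TKO (20.2), Cpt1DKO (15.9) and Cpt2PparaDKO (11.8) down to Control (1.18). Neighbours in this order overlapped except the last pair. TKO differed from Cpt2KO by -0.26 (95% interval -1.27 to 0.75, adjusted p = 0.881, edgeR quasi-likelihood test). Cpt2PparaDKO stood 1.02 log2 units below Cpt2KO (-1.02, 95% interval -2.04 to -0.0032, adjusted p = 0.139), a difference that did not pass the threshold of 0.05. The model for Dusp8 (ENSMUSG00000037887, GRCm39, chromosome 7, 141633227 to 141649580, minus strand) is crossed by the noncoding gene Gm32786, which had 4 counts in all 20 libraries.

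**Figure D1:**
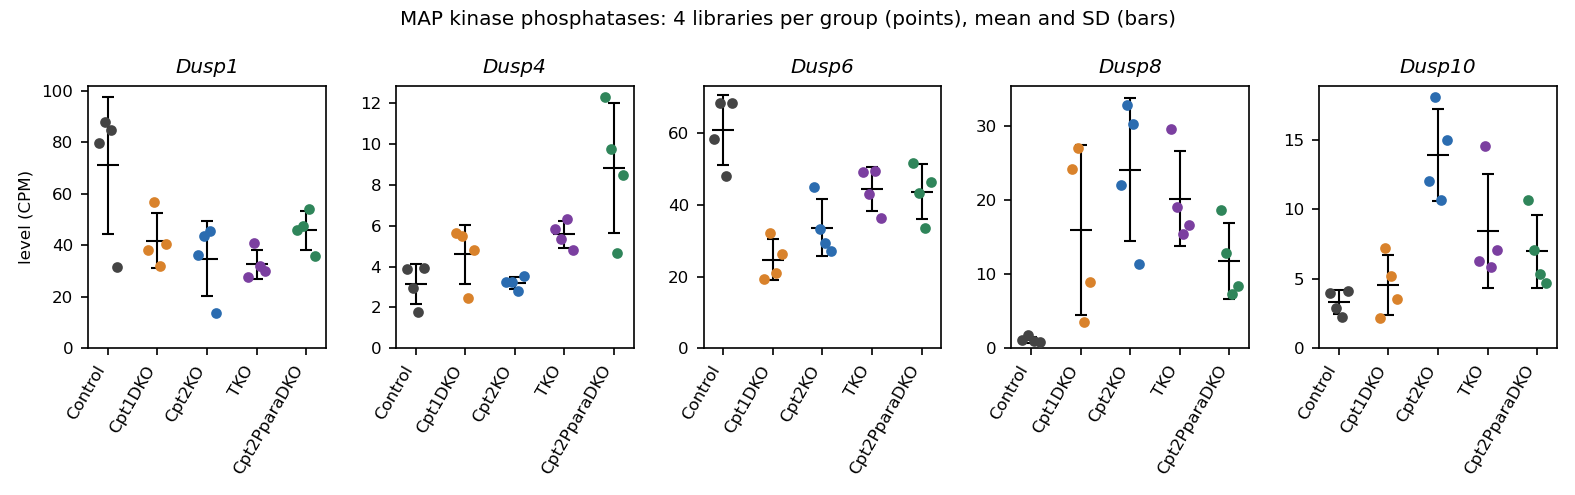
Levels of the 5 phosphatase genes in CPM (vertical axes, 1 scale per gene) in each of 5 groups; points are libraries, bars the mean and standard deviation of 4. Dusp8 is under 2 CPM in every Control library and between 3.51 and 32.8 CPM elsewhere, while Dusp6 is highest in Control on average.

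Away from Dusp8, the other 9 genes split in direction against Control rather than moving as a block. Dusp10, Myc and Jun rose with Cpt2 loss while Dusp1 and Dusp6 fell, 3 and 2 of 9 genes in Cpt2KO. Of the 15669 genes tested, 33.4% were called there, 16.2% higher and 17.2% lower. In TKO, 4 of 9 rose (Dusp4, Dusp10, Jun and Myc) and 1 fell (Dusp1), beside 27.4% of all genes called, 13% higher and 14.4% lower. In Cpt2PparaDKO, 5 of 9 rose (Dusp4, Dusp10, Egr1, Fos and Myc) and 1 fell (Dusp6), beside 32.5% of all genes called, 14.9% higher and 17.6% lower. The median log2 change of the 9 genes was 0.02 in Cpt2KO, 0.53 in TKO and 1.07 in Cpt2PparaDKO, and that of all genes tested lay between -0.01 and 0.00. All 3 comparisons share the Control libraries, which also took part in choosing the set. Without the filter on low counts, 10 calls of these genes over all comparisons were lost, with adjusted p from 0.0546 to 0.107. Against Control they were Dusp1 in Cpt2KO, Dusp1 and Jun in TKO, and Dusp6, Dusp10, Egr1 and Fos in Cpt2PparaDKO. The rest were Myc in TKO against Cpt1DKO, and Dusp10 and Fos in Cpt2PparaDKO against Cpt2KO. In Cpt1DKO, given without a test, 2 of the 10 genes did not overlap with Control, Dusp8 above and Dusp6 below it, where 16.9% of all genes did not overlap, 7.25% above and 9.62% below. Without the library labelled Cpt1DKO replicate 2, Dusp8 stood at 3.38 and Dusp6 at -1.45.

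**Figure D2:**
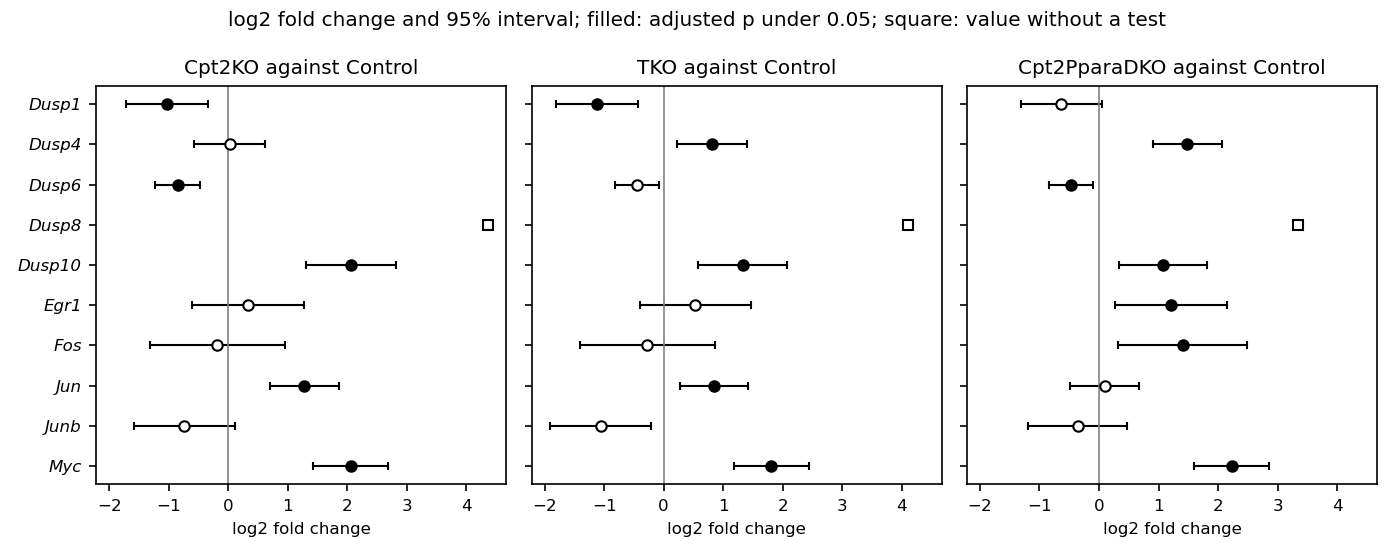
Log2 fold change against Control (horizontal axes) of the 10 genes in 3 knockout groups; circles are fitted values with 95% intervals, filled where the adjusted p is under 0.05, and the square is Dusp8, shown without a test. Myc lies at 2.05, 1.81 and 2.23, and Dusp6 lies left of 0 in each panel.

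Dusp6, the cytoplasmic ERK phosphatase, was lowest by mean level in Cpt1DKO (24.8 CPM) and next lowest in Cpt2KO (33.7 CPM). It stood closer to Control in TKO (44.5 CPM) and equally in Cpt2PparaDKO (43.7 CPM), where Cpt1a and Cpt1b were not targeted. Its levels were 58.3, 68.4, 48.1 and 68.5 CPM in Control, 19.3, 32.2, 21.1 and 26.4 CPM in Cpt1DKO, and 44.9, 33.2, 29.3 and 27.2 CPM in Cpt2KO. They were 49.2, 43.0, 49.4 and 36.3 CPM in TKO and 51.7, 43.3, 33.5 and 46.3 CPM in Cpt2PparaDKO. All Cpt1DKO and Cpt2KO libraries lay below all Control libraries, and all TKO libraries lay above all Cpt1DKO libraries. The fall in Cpt2KO was -0.85 (SE 0.18, adjusted p = 0.000971). In Cpt1DKO the value, untested, was -1.30. TKO stood above Cpt1DKO by 0.84 (SE 0.18, adjusted p = 0.0108) and 0.45 below Control (-0.45, adjusted p = 0.0651). Against Cpt2KO, TKO stood at 0.40 (adjusted p = 0.444), which did not pass. Cpt2 loss thus went with a lower level on the floxed background and a higher one on the Cpt1-deficient background, and this difference of effects was 1.70 (SE 0.26, adjusted p = 0.00153, edgeR). It was the only one of 9 genes called for that interaction, where 2.7% of all genes were called and 1.42% were positive. The interaction contains the comparison around which the set was chosen, so its p-value does not stand apart from that choice. Over 22 other settings it stayed between 1.59 and 1.86. Without the library labelled Cpt1DKO replicate 2 it was 1.85 (adjusted p = 7.6e-04), while the calls over all genes went from 423 to 209, and TKO stood 0.99 above Cpt1DKO (adjusted p = 0.00492).

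In Cpt2PparaDKO, Dusp6 was lower than in Control by a smaller amount (-0.48, adjusted p = 0.0456), and that call was lost in 10 of 14 settings. Among these were leaving out Control replicate 1, 2 or 4 or Cpt2PparaDKO replicate 2, 3 or 4 (adjusted p from 0.0625 to 0.168), and leaving out the female libraries (0.0761). In TKO, of 14 other settings, it passed the test only without Control replicate 3 (adjusted p = 0.0446) or when the 2 groups were fitted alone (0.0301).

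Dusp1, an inducible nuclear phosphatase, was lower in most knockout libraries. It stood at 79.8, 87.9, 84.9 and 31.4 CPM in Control, at 36.4, 43.5, 45.6 and 13.9 CPM in Cpt2KO and at 27.9, 40.7, 31.8 and 29.9 CPM in TKO. It stood at 38.1, 56.9, 31.8 and 40.5 CPM in Cpt1DKO and at 46.1, 47.7, 53.9 and 35.7 CPM in Cpt2PparaDKO. Control replicate 4 lay within the range of the knockouts, so no knockout group was free of overlap with Control. Dusp1 fell by 1.03 on the log2 scale in Cpt2KO (-1.03, SE 0.33, adjusted p = 0.0217) and by 1.12 in TKO (-1.12, SE 0.33, adjusted p = 0.0159). In Cpt2KO the call was lost without Control replicate 1, 2 or 3 (adjusted p = 0.0531, 0.0692 and 0.0634), with only the compared groups in the fit (0.125) and with no filter on low counts (0.0703). In TKO it was lost without Control replicate 2 (0.054) or TKO replicate 1 (0.0502) and with no filter (0.0575). In Cpt2PparaDKO the difference of -0.63 (adjusted p = 0.145) passed only without Control replicate 4 (-0.86, adjusted p = 0.0312). Ergic1, whose gene overlaps the Dusp1 model on the opposite strand, fell too, by 0.60 in Cpt2KO (-0.60, adjusted p = 2.3e-04) and 0.63 in TKO (-0.63, adjusted p = 2.0e-04). No source used here gives the strand setting of the counting, so reads of the overlapping stretch cannot be told apart.

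Dusp4, also a nuclear phosphatase, rose in TKO and Cpt2PparaDKO, and its value in Cpt2KO lay near 0. Control libraries held 3.87, 2.97, 1.80 and 3.92 CPM and Cpt2KO libraries 3.24, 3.25, 2.82 and 3.52 CPM. TKO libraries held 5.82, 5.32, 6.34 and 4.80 CPM, Cpt2PparaDKO libraries 12.3, 9.76, 4.68 and 8.50 CPM, and Cpt1DKO libraries 5.63, 5.49, 2.47 and 4.79 CPM. Every TKO and Cpt2PparaDKO library exceeded every Control and every Cpt2KO library. Dusp4 rose by 1.48 in Cpt2PparaDKO (SE 0.28, adjusted p = 4.1e-04) and by 0.82 in TKO (SE 0.28, adjusted p = 0.0355), and stood at 0.02 in Cpt2KO (95% interval -0.58 to 0.62, adjusted p = 0.964). The TKO call was lost without Control replicate 2 or 3 or TKO replicate 1, 2 or 3 (adjusted p from 0.0544 to 0.107). The Cpt2PparaDKO call passed in all 14 other settings.

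Dusp10, which acts on JNK and p38, was highest in Cpt2KO. It stood at 3.98, 2.90, 2.29 and 4.10 CPM in Control, 2.19, 7.19, 5.19 and 3.55 CPM in Cpt1DKO and 12.0, 18.1, 10.6 and 15.0 CPM in Cpt2KO. It stood at 6.30, 14.6, 5.83 and 7.09 CPM in TKO and 10.7, 7.09, 5.38 and 4.73 CPM in Cpt2PparaDKO. The groups with Cpt2 loss did not overlap with Control, and Cpt2KO did not overlap with Cpt1DKO. Dusp10 rose 4.17-fold in Cpt2KO (log2 2.06, SE 0.36, adjusted p = 1.9e-04), by 1.33 in TKO (SE 0.36, adjusted p = 0.00864) and by 1.07 in Cpt2PparaDKO (SE 0.35, adjusted p = 0.0258). The last call was lost without Control replicate 2 or 3 or Cpt2PparaDKO replicate 1 (adjusted p = 0.0628, 0.0742 and 0.1). Cpt2KO exceeded Cpt1DKO by 1.62 (SE 0.35, adjusted p = 0.00489), and by 1.95 without the library labelled Cpt1DKO replicate 2 (adjusted p = 0.00213). The opposite-strand gene 1700056E22Rik, which overlaps Dusp10, rose alongside it at a lower level, from 0.699 CPM in Control to 2.78 CPM in Cpt2KO (1.97, SE 0.32, adjusted p = 8.1e-05).

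**Figure D3:**
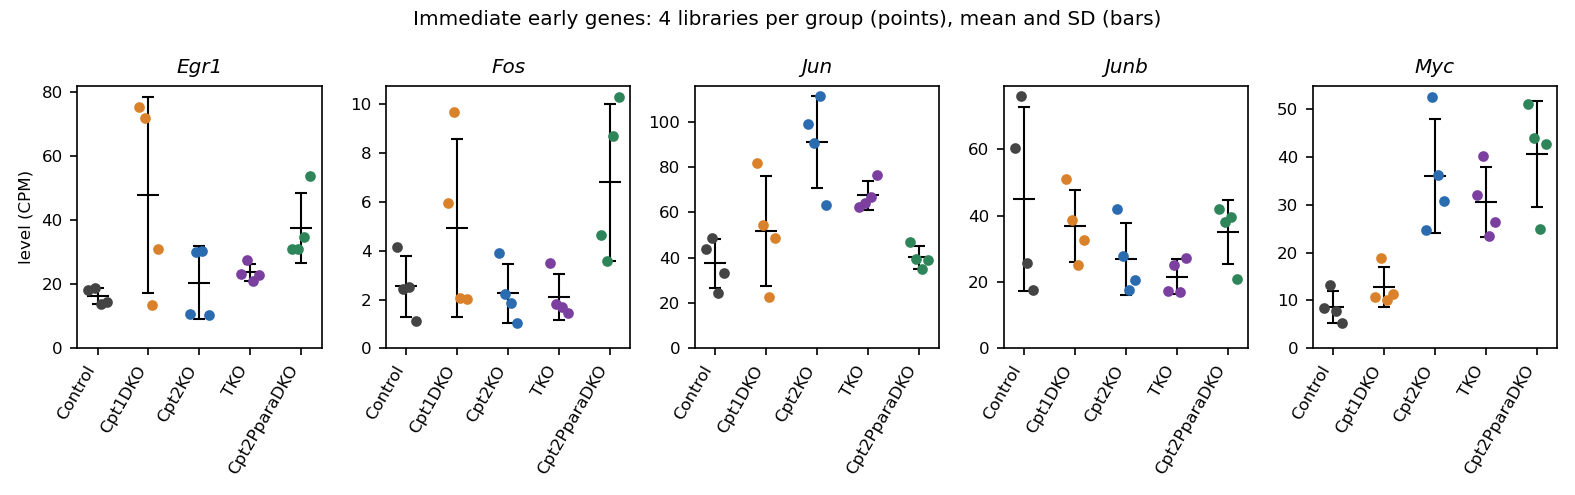
Levels of the 5 immediate early genes in CPM (vertical axes, 1 scale per gene) in each of 5 groups; points are libraries, bars the mean and standard deviation of 4. Myc is at or above 23.5 CPM in every library with Cpt2 loss and at or below 18.9 CPM in the rest, while Egr1 and Fos spread widely within Cpt1DKO.

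Myc rose in all 3 groups with Cpt2 loss. It stood at 8.51, 13.3, 7.77 and 5.21 CPM in Control and at 10.8, 18.9, 10.1 and 11.4 CPM in Cpt1DKO. It stood at 24.6, 52.4, 36.2 and 30.8 CPM in Cpt2KO, 32.1, 40.2, 23.5 and 26.3 CPM in TKO and 50.9, 43.9, 24.9 and 42.6 CPM in Cpt2PparaDKO. No library with Cpt2 loss overlapped with a library of Control or Cpt1DKO. The rise against Control was 2.05 in Cpt2KO (SE 0.30, adjusted p = 4.9e-05), 1.81 in TKO (SE 0.30, adjusted p = 2.3e-04) and 2.23 in Cpt2PparaDKO (SE 0.30, adjusted p = 3.0e-05), and each passed in all 14 other settings. Against Cpt1DKO, Myc was higher by 1.49 in Cpt2KO (SE 0.30, adjusted p = 0.00284) and by 1.25 in TKO (SE 0.30, adjusted p = 0.0211). The last call was lost without Cpt1DKO replicate 1, 3 or 4 or TKO replicate 1 or 2 (adjusted p from 0.0532 to 0.0776). Without the library labelled Cpt1DKO replicate 2, which held the highest Myc level of its group, the differences were 1.74 (adjusted p = 0.00148) and 1.5 (adjusted p = 0.00855). Cpt2PparaDKO and Cpt2KO differed by 0.17 (95% interval -0.42 to 0.77, adjusted p = 0.707).

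Jun, the AP-1 subunit and JNK substrate, rose in Cpt2KO and TKO against Control. Control libraries held 44.0, 48.6, 24.5 and 33.1 CPM, Cpt2KO libraries 98.9, 90.5, 111 and 63.3 CPM and TKO libraries 62.2, 64.3, 66.6 and 76.6 CPM. Cpt2PparaDKO libraries held 47.0, 39.6, 34.9 and 38.8 CPM and Cpt1DKO libraries 81.6, 54.3, 22.8 and 48.6 CPM. Cpt2KO and TKO libraries all lay above the Control and Cpt2PparaDKO libraries. Jun rose by 1.28 in Cpt2KO (SE 0.28, adjusted p = 0.00156) and by 0.84 in TKO (SE 0.28, adjusted p = 0.0286), and was 1.18 lower in Cpt2PparaDKO than in Cpt2KO (-1.18, SE 0.28, adjusted p = 0.00411). The TKO call was lost without Control replicate 3 or 4 or TKO replicate 3 or 4 (adjusted p from 0.0513 to 0.0815). Cpt2KO stood above Cpt1DKO by 0.81 (adjusted p = 0.0549), past the threshold without Cpt1DKO replicate 1 (adjusted p = 0.0119) or Cpt2KO replicate 4 (0.0402) and with DESeq2 (0.0235). TKO stood 0.38 above Cpt1DKO (95% interval -0.19 to 0.95, adjusted p = 0.483), and their libraries overlapped. Without the library labelled Cpt1DKO replicate 2 these differences were 0.83 (adjusted p = 0.0876) and 0.40 (adjusted p = 0.501). The antisense gene Junos averaged between 0.709 and 1.13 CPM in the 5 groups.

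Junb, the other AP-1 partner measured, did not pass the test in any comparison tested. It stood at 60.4, 76.1, 25.9 and 17.6 CPM in Control, so that the highest Control library held over 4 times the lowest. It stood at 17.4, 25.1, 16.9 and 27.2 CPM in TKO, with the other 3 groups between 17.7 and 50.9 CPM. The TKO value of -1.05 (95% interval -1.90 to -0.21, adjusted p = 0.0607) passed without Control replicate 3 (adjusted p = 0.0406) or 4 (0.0159) and with DESeq2 (0.022). Prdx2, which encodes a peroxidase and overlaps Junb on the opposite strand, had 32894 counts in all 20 libraries. It averaged 101.3 CPM in Control and 80.3 CPM in TKO (-0.33, adjusted p = 0.0695), every TKO library being lower, and as for Dusp1 the reads of the shared stretch cannot be told apart.

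By mean level, Fos and Egr1 were highest in Cpt1DKO and Cpt2PparaDKO, and both varied widely between the Cpt1DKO libraries. In Cpt1DKO, replicates 1 and 2 lay above replicates 3 and 4 for both, and also for Dusp4, Dusp8, Jun and Junb. Dusp1, Dusp6, Dusp10 and Myc did not split this way. Summed heat shock genes held 2870 and 3597 CPM against 1390 and 1531 CPM. Summed ERK feedback genes, cascade kinases and MYC relatives showed no such rise. What set these libraries apart was not tested. Fos stood at 4.15, 2.43, 2.50 and 1.11 CPM in Control, 3.91, 2.24, 1.85 and 1.04 CPM in Cpt2KO and 3.51, 1.82, 1.68 and 1.46 CPM in TKO. It stood at 5.96, 9.68, 2.08 and 2.03 CPM in Cpt1DKO and 4.66, 3.57, 8.70 and 10.3 CPM in Cpt2PparaDKO. Against Control, untested, Cpt1DKO stood at 0.95 for Fos and 1.55 for Egr1. Without the library labelled Cpt1DKO replicate 2, which held the highest Fos level of its group, these values were 0.40 and 1.29. Of the Cpt2PparaDKO libraries, only replicate 2 lay within the range of Fos in Control and Cpt2KO. Fos rose in Cpt2PparaDKO by 1.41 against Control (SE 0.52, adjusted p = 0.0439) and by 1.60 against Cpt2KO (SE 0.52, adjusted p = 0.0317). The first call was lost without Control replicate 2, 3 or 4 or Cpt2PparaDKO replicate 3 or 4 (adjusted p from 0.0834 to 0.127). The second was lost without Cpt2KO replicate 2, 3 or 4 or Cpt2PparaDKO replicate 3 or 4 (0.0734 to 0.0908). Without the female libraries the adjusted p was 0.139 and 0.147.

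Egr1 stood at 18.1, 18.8, 13.7 and 14.6 CPM in Control, 75.2, 71.7, 13.5 and 31.0 CPM in Cpt1DKO and 10.6, 30.1, 30.4 and 10.6 CPM in Cpt2KO. It stood at 23.1, 27.6, 21.0 and 22.9 CPM in TKO and 31.0, 30.9, 34.7 and 53.7 CPM in Cpt2PparaDKO. All TKO and Cpt2PparaDKO libraries lay above all Control libraries, while Cpt1DKO and Cpt2KO straddled them. Egr1 rose by 1.20 in Cpt2PparaDKO against Control (SE 0.45, adjusted p = 0.0476), but the call was lost when any 1 of the 8 libraries was left out (0.0552 to 0.137) and without the female libraries (0.13). Against Cpt2KO the value was 0.88 (adjusted p = 0.164). Cpt2KO stood below Cpt1DKO by 1.23 (-1.23, adjusted p = 0.0745), and at -0.96 without the library labelled Cpt1DKO replicate 2 (adjusted p = 0.19). It was past the threshold without Cpt1DKO replicate 3 (0.0153), without the female libraries (0.048) and with DESeq2 (0.0191). The TKO value of 0.53 against Control (adjusted p = 0.411) passed when those groups were fitted alone (0.00677).

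Loss of Cpt1a and Cpt1b on top of Cpt2 loss left the 10 genes without a detected change. In TKO against Cpt2KO, 0 of 10 passed the edgeR test, beside 0.0511% of all genes. At an unadjusted p under 0.05, 3 of 10 did, beside 1690 of 15669 genes (10.8%), and DESeq2 called 0 of the 10 and 49 of all genes. Those 3 were Dusp4 at 0.80 (95% interval 0.21 to 1.38), Dusp6 at 0.40 (0.03 to 0.78) and Dusp10 at -0.73 (-1.43 to -0.03). In TKO against Cpt1DKO, 2 of 9 genes passed, Dusp6 and Myc, both higher, where 4.65% of all genes passed and 2.6% were higher. In Cpt2KO against Cpt1DKO, 2 of 9 passed, Dusp10 and Myc, both higher, where 14.1% of all genes passed and 7.41% were higher. Without the library labelled Cpt1DKO replicate 2, Dusp6 passed there too (0.59, adjusted p = 0.0413), and the same 2 genes passed in TKO against Cpt1DKO.

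Between Cpt2PparaDKO and Cpt2KO, members moved in both directions. These groups differed in Ppara and also in Cpt2 RNA. Cpt2 averaged 33.9 CPM in Cpt2PparaDKO and 131 CPM in Cpt2KO (-1.95, edgeR adjusted p = 1.4e-07), with no overlap. RNA counts over the whole gene do not show how much CPT2 enzyme remained. The parts of Ppara loss and of any difference in Cpt2 in the changes below cannot be told apart. In Cpt2PparaDKO against Cpt2KO, 4 of 10 genes passed, beside 24.4% of all genes, 12.1% higher and 12.2% lower. Dusp4 rose by 1.46 (SE 0.28, adjusted p = 5.9e-04) and Fos rose, while Jun fell and Dusp10 fell by 0.99 (-0.99, SE 0.34, adjusted p = 0.0366). The Dusp10 call was lost without Cpt2KO replicate 2 or 4 or Cpt2PparaDKO replicate 2, 3 or 4 (adjusted p from 0.0718 to 0.116) and without the female libraries (0.0793). The value of 0.38 for Dusp6 (adjusted p = 0.135) passed without Cpt2KO replicate 1 (0.54, adjusted p = 0.0341).

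**Figure D4:**
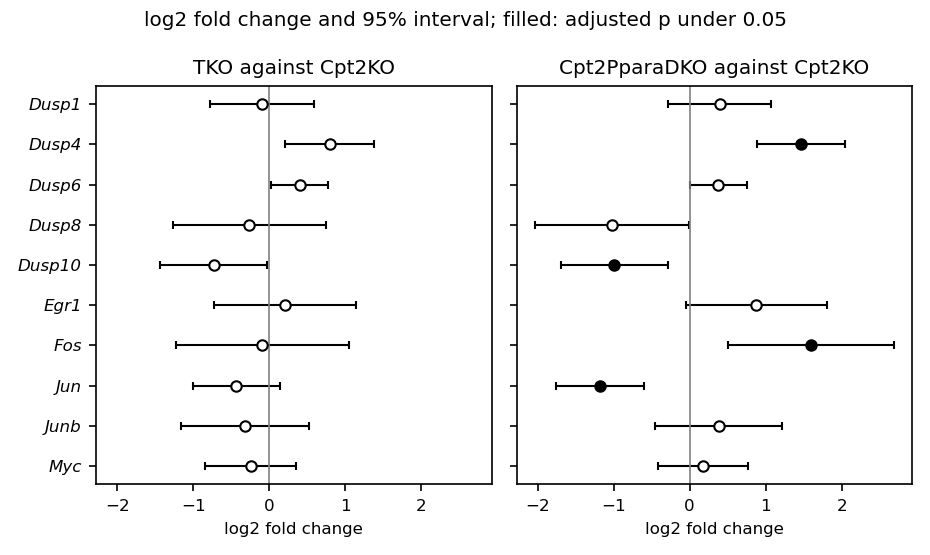
Log2 fold change against Cpt2KO (horizontal axes, same scale) of the 10 genes with 95% intervals, filled where the adjusted p is under 0.05. No gene is filled for TKO, and Dusp4 (1.46), Fos (1.60), Jun (-1.18) and Dusp10 (-0.99) are filled for Cpt2PparaDKO.

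Levels of cell type markers also differed between the groups. The marker counts below stand beside these shares of all genes. Against Control, 16.2% rose and 17.2% fell in Cpt2KO, 13% and 14.4% in TKO, and 14.9% and 17.6% in Cpt2PparaDKO. In Cpt2PparaDKO against Cpt2KO, 12.1% rose and 12.2% fell. The 5 markers of lipid-associated macrophages summed to 17.4 to 24.1 CPM in Control, 22.4 to 53.9 in Cpt1DKO and 105 to 152 in Cpt2KO. They summed to 70.5 to 99.2 CPM in TKO and 129 to 170 CPM in Cpt2PparaDKO. Of these, 4 of 5 rose in Cpt2KO and TKO and 5 of 5 in Cpt2PparaDKO. The 7 hepatocyte markers summed to 79293 to 87825 CPM in Cpt1DKO, 47559 to 75185 in Cpt2KO and 39694 to 70326 in TKO, and 5, 4 and 6 of 7 fell against Control in Cpt2KO, TKO and Cpt2PparaDKO. The 5 neutrophil markers summed to 5.72 to 9.40 CPM in Cpt2PparaDKO and 2.25 to 5.43 CPM elsewhere. Of the 3 tested, 1 rose in Cpt2PparaDKO against Control and 2 rose there against Cpt2KO. Ly6g was at 0 in all libraries of every group but Cpt2KO. The 10 macrophage and Kupffer cell markers summed to 493 to 588 CPM in Cpt2PparaDKO and 265 to 534 in Control, with 1 of 10 higher. The 8 stellate cell and matrix markers summed to 191 to 220 CPM in Control, 246 to 298 in Cpt1DKO, 254 to 350 in Cpt2KO, 207 to 258 in TKO and 259 to 296 in Cpt2PparaDKO. In Cpt2PparaDKO 4 of 8 rose against Control and 3 of 8 against Cpt2KO. The 6 cholangiocyte markers summed to 29.7 to 35.5 CPM in Control, 18.7 to 26.5 in Cpt1DKO, 7.61 to 15.1 in Cpt2KO, 10.8 to 20.5 in TKO and 20.3 to 49.98 in Cpt2PparaDKO. Of the 5 tested, 2 fell in Cpt2KO, 2 in TKO and 1 in Cpt2PparaDKO. The 8 endothelial markers summed to 225 to 472 CPM in Control and 374 to 479 in Cpt1DKO. Of these, 0 were called in Cpt2KO, TKO or Cpt2PparaDKO against Control. The 5 erythroid markers summed to 121 to 265 CPM in Control and 163 to 547 in Cpt2KO, where 2 rose and 1 fell. In TKO and Cpt2PparaDKO 0 of 5 were called. The part of these cells in the levels of the 10 genes was not tested.

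The wider circuit was read from 94 related genes in 7 lists, of which 89 were tested. Against Control, 35 of the 89 were called in Cpt2KO (39.3%), 31 in TKO (34.8%) and 34 in Cpt2PparaDKO (38.2%), beside 33.4%, 27.4% and 32.5% of all genes. Of 21 other immediate early genes tested, 9 rose and 2 fell in Cpt2KO, 10 rose and 2 fell in TKO, and 9 rose and 3 fell in Cpt2PparaDKO, with median log2 changes of 0.69, 0.74 and 0.75 where the median of all genes was near 0. Atf3, a stress-induced repressor of the same bZIP class as JUN, rose from 1.66 CPM in Control to 31.9 CPM in Cpt2KO (4.25, SE 0.69, adjusted p = 2.0e-04), 27.4 in TKO and 23.1 in Cpt2PparaDKO. Klf6, a zinc finger factor induced by injury, rose from 9.46 to 79.0 CPM in Cpt2KO (3.06, SE 0.47, adjusted p = 1.1e-04). Nr4a1, an orphan nuclear receptor induced by cyclic AMP and fasting, fell in TKO (-2.59, SE 0.52, adjusted p = 0.00145). It was higher in Cpt2PparaDKO than in Cpt2KO by 2.59 (SE 0.51, adjusted p = 0.00131), from 5.77 to 34.8 CPM. The following fell there, Klf10 from 43.9 to 11.1 CPM (-1.98, SE 0.29, adjusted p = 5.8e-05) and the JUN relative Jund from 70.6 to 41.7 CPM (-0.76, SE 0.16, adjusted p = 0.00151).

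**Figure D5:**
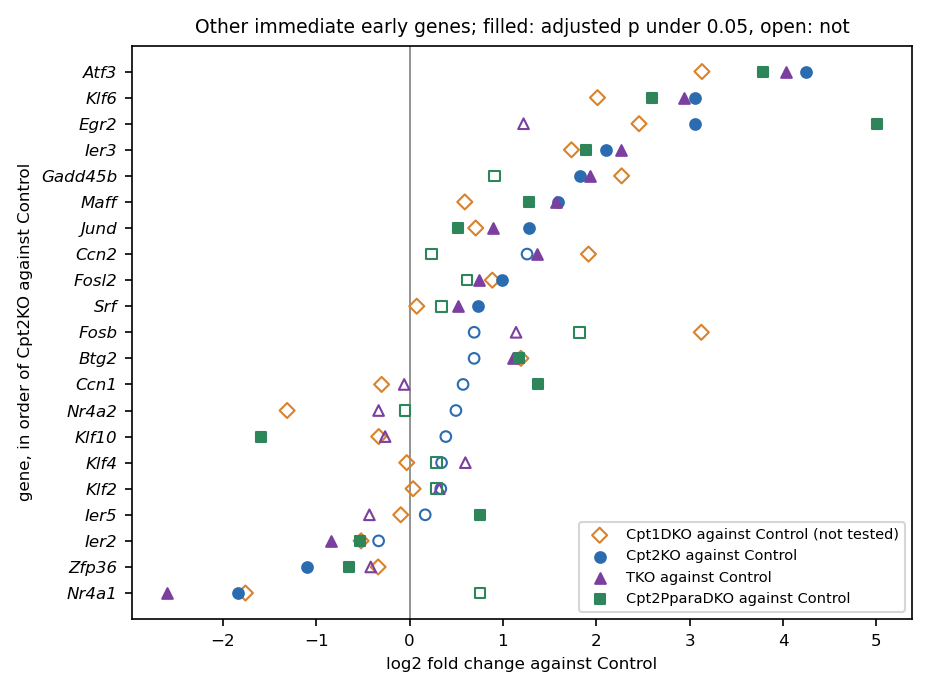
Log2 fold change against Control (horizontal axis) of the 21 other immediate early genes tested, in order of the Cpt2KO value; symbols are the 4 knockout groups, filled where the adjusted p is under 0.05, and Cpt1DKO is shown without a test. Atf3 and Klf6 lie right of 0 in all groups and Nr4a1 lies left of 0 in all but Cpt2PparaDKO; Egr2 averages 0.0315 CPM in Control, so its fold rests on very few reads.

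The list of ERK feedback and target genes held 10 genes, 3 sprouty and 3 SPRED inhibitors, the ERK-induced transcription factors Etv1, Etv4 and Etv5, and Phlda1. Against Control, 2 rose and 4 fell in Cpt2KO (median -0.50), where 16.2% of all genes rose and 17.2% fell. In TKO 0 rose and 2 fell (median -0.03; all genes 13% and 14.4%), and in Cpt2PparaDKO 2 rose and 3 fell (median 0.12; all genes 14.9% and 17.6%). Spry4, a sprouty protein that restrains receptor signalling to ERK and is a target of it, fell from 16.0 CPM in Control to 2.12 CPM in Cpt2KO (-2.92, SE 0.31, adjusted p = 7.0e-07). It also fell by 2.42 in TKO (-2.42, adjusted p = 6.7e-06) and by 1.74 in Cpt2PparaDKO (-1.74, adjusted p = 1.1e-04). Spry4 averaged 2.98 CPM in TKO, still far below Control, whereas Dusp6 stood closer to Control there. The interaction of Cpt1 and Cpt2 loss was positive for Dusp6 and also for Spry4 (2.57, SE 0.43, adjusted p = 0.00231). For Spry4 it was smaller than the fall of 2.92 in Cpt2KO, so the fitted effect of Cpt2 loss stayed negative on the Cpt1-deficient background. That of Dusp6 was positive there (0.84), so the 2 genes differed in this respect. Spry4 was 1 of 4 called among the 89 genes (4.49%, beside 2.7% of all genes). The others were Map2k6 (2.86, SE 0.58, adjusted p = 0.0124), Jund (-1.09, SE 0.23, adjusted p = 0.0139) and Zfp36 (1.02, SE 0.26, adjusted p = 0.0407), which encodes a protein that destabilises early-gene messages. The Zfp36 call was lost in 13 of 22 settings, among them without the library labelled Cpt1DKO replicate 2 (adjusted p = 0.078), where the other 3 passed. In Cpt2PparaDKO against Cpt2KO, 3 genes of the list rose and 1 fell, where 12.1% of all genes rose and 12.2% fell. Etv5 rose there from 2.56 to 6.48 CPM (1.34, SE 0.24, adjusted p = 2.7e-04).

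Among 22 kinases of the cascades, Map2k6, which activates p38, fell in Cpt2KO, TKO and Cpt2PparaDKO. It averaged 16.3 CPM in Control, 4.83 in Cpt1DKO, 0.927 in Cpt2KO (-4.16, SE 0.44, adjusted p = 9.9e-07), 1.98 in TKO and 2.25 in Cpt2PparaDKO. Its target Mapk14, which encodes p38α, fell by 0.56 in Cpt2KO (-0.56, SE 0.13, adjusted p = 0.00266) and by 0.81 in Cpt2PparaDKO (-0.81, SE 0.13, adjusted p = 1.2e-04). Mapk7, which encodes ERK5, rose by 1.25 in Cpt2KO (SE 0.23, adjusted p = 2.9e-04). In all, 2 kinases rose and 3 fell in Cpt2KO, 1 and 3 in TKO, and 3 and 5 in Cpt2PparaDKO. These were 22.7%, 18.2% and 36.4% of the list, where 33.4%, 27.4% and 32.5% of all genes were called. Of 4 other MAP kinase phosphatase genes tested, Dusp5, a nuclear ERK phosphatase, went from 0.999 CPM in Control up to 3.63 CPM in Cpt2KO (1.86, SE 0.46, adjusted p = 0.00384), 3.60 in TKO and 3.43 in Cpt2PparaDKO.

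Levels of different genes were compared per length, as the FPKM values of the authors, fragment counts scaled to transcript length and library size. In Control, Dusp1 was highest of the 10 at 21.0 ± 7.86 FPKM (SD, n = 4), followed by Junb at 19.2 ± 11.8 and Dusp6 at 19.1 ± 3.05, which overlapped, and Dusp8 was lowest at 0.237 ± 0.0792. In Cpt2KO, Jun was highest at 28.3 ± 6.24 FPKM and Myc second at 13.2 ± 4.40. Dusp8 moved to the sixth place there, at 4.91 ± 1.97 FPKM, next to Dusp10 at 4.55 ± 1.10. In Cpt2PparaDKO, Junb (15.1 ± 4.15), Myc (14.8 ± 3.99), Dusp6 (13.8 ± 2.37) and Dusp1 (13.7 ± 2.30) led and did not differ beyond their spread.

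Among 11790 protein-coding genes averaging at least 1 CPM, 5 followed Dusp8 most closely over the 20 libraries by Pearson's r of log2(CPM + 0.5). They were the metalloprotease gene Adamts1 (0.955), Rnf39 (0.955), Ccdc120 (0.943), Atf3 (0.938) and the tubulin gene Tubb2a (0.933). Adamts1 averaged 12.9 CPM in Control and 42.4, 73.7, 48.5 and 42.4 CPM in Cpt1DKO, Cpt2KO, TKO and Cpt2PparaDKO. Tubb2a averaged 24.4 CPM in Control and 190, 671, 450 and 185 CPM in the same groups. Within groups, the deviations of Adamts1 and Dusp8 from their group means correlated at 0.896, those of Jun and Dusp8 at 0.781 and those of Egr1 and Dusp8 at 0.766. Those of the other members with Dusp8 lay between 0.053 for Dusp10 and 0.578 for Myc. Of the 10 genes, Myc ranked 278 and Jun 287 in likeness to Dusp8, each with r = 0.75. The r with Dusp8 was negative for Dusp6 (-0.44), Dusp1 (-0.40) and Junb (-0.19). Without the library labelled Cpt1DKO replicate 2, the r of the 5 genes lay between 0.935 and 0.964. The deviations of Jun and Egr1 then correlated with those of Dusp8 at 0.812 and 0.718. These correlations share the group differences and each library's depth, include the Dusp8 levels that chose the set, and are given as a description.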

How the data were processed

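Total RNA of frozen fasted mouse liver gave 20 libraries, per the labels' protocols. The authors deposited whole-number read counts per gene and FPKM values for the same libraries, and the alignment used HISAT2 with GRCm39 (mm39), per the submitters' processing notes. No source used here gives the counting tool or strand setting. CPM was computed here from the deposited counts with TMM library sizes, and FPKM was used only to compare levels between genes.

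Counts of all genes were fitted once over the 20 libraries with edgeR 4.0.16 (glmQLFit, robust, TMM, filterByExpr with a minimum count of 10), which left 15669 genes, and p-values were Benjamini-Hochberg adjusted over all of them. Calls used an adjusted p below 0.05. Standard errors and 95% intervals come from that fit. Alternatives were DESeq2 1.42.0, its size factors in edgeR, no filter, the compared groups alone, a replicate block, leaving out the 2 female libraries, and leaving out each library. The interaction is TKO against Cpt1DKO minus Cpt2KO against Control. The fit was tested on simulated counts.

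The 10 genes, the gene lists and the markers were chosen with earlier results of these data known. Besides the 10 and the targeted genes, the rule named, per list and comparison, up to 3 called genes with the largest log2 change and a mean of at least 1 CPM. The 5 genes most like Dusp8 were ranked over protein-coding genes of that level. Promoter bases come from RefSeq on GRCm38.p6, another build than the counts. Replicates of a group differed by more than sampling noise (chi-square per degree of freedom 11.5 to 151).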

Additional observations from a re-analysis of the deposited data

Results flagged for a closer look

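In 4 of the 50 combinations of gene and group, 1 library stood far from the other 3, by a gap above 0.829 of the group's range. Chance gives about 1 in 20. Dusp1 in Control replicate 4 was 31.4 CPM where the others were 79.8 to 87.9 CPM. Dusp10 in TKO replicate 2 was 14.6 CPM where the others were 5.83 to 7.09 CPM. Egr1 in Cpt2PparaDKO replicate 4, a library with female Xist levels, was 53.7 CPM where the others were 30.9 to 34.7 CPM. Myc in the library labelled Cpt1DKO replicate 2, whose Cpt2 level of 147 CPM lay within the Cpt2KO range, was 18.9 CPM where the others were 10.1 to 11.4 CPM. The effect of Cpt2 loss on Dusp6 differed between the floxed and the Cpt1-deficient background by 1.70 on the log2 scale (edgeR, adjusted p = 0.00153), being -0.85 in the former and 0.84 in the latter. This interaction contains Cpt1DKO against Control (-1.30, untested), the comparison around which the set was chosen. Its p-value therefore does not stand apart from that choice. The other part, TKO against Cpt2KO, was 0.40 and did not pass (edgeR, adjusted p = 0.444).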

How the results depend on the processing

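Of 1340 values of the 10 genes under other settings, 1252 stayed on their side of the threshold, 70 lost a call and 18 gained one. No called value changed sign, and 23 uncalled ones did. Without the filter on low counts, called members numbered 3 in TKO against Control (5 with it), 2 in Cpt2PparaDKO against Control (6), 1 in TKO against Cpt1DKO (2) and 2 in Cpt2PparaDKO against Cpt2KO (4), and pathway genes 1 in TKO against Cpt1DKO (2). More genes were tested there. DESeq2 called 4 members in Cpt2KO against Cpt1DKO (2 in edgeR), and 8 pathway genes in TKO against Cpt1DKO (2) and 9 in the interaction (4). Without the female libraries, 3 members were called in Cpt2PparaDKO against Control, 2 in Cpt2PparaDKO against Cpt2KO and 5 pathway genes in TKO against Cpt1DKO. Fitting the compared groups alone, pathway calls fell to 8 in Cpt2KO against Cpt1DKO (14) and 12 in Cpt2PparaDKO against Cpt2KO (22). Other causes were not tested.

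Leaving out 1 library at a time, member calls ranged from 4 to 5 in Cpt2KO, 3 to 5 in TKO and 2 to 4 in Cpt2PparaDKO against Control, 1 to 2 in TKO and 2 to 3 in Cpt2KO against Cpt1DKO, 2 to 5 in Cpt2PparaDKO against Cpt2KO and 1 to 2 in the interaction. The second there was Jun without Cpt1DKO replicate 3 (-1.14, adjusted p = 0.0384). Pathway calls ranged from 0 to 3 in TKO and 9 to 16 in Cpt2KO against Cpt1DKO, 11 to 27 in Cpt2PparaDKO against Cpt2KO and 3 to 8 in the interaction.

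Same-numbered libraries did not deviate together: of 40 pairs, 6 correlated above 0.1 (range -0.23 to 0.29), and 4 of 20 libraries were closest to their own number. With the replicate block, 5 members were called in Cpt2KO, 5 in TKO and 5 in Cpt2PparaDKO against Control, Egr1 being lost in the last (adjusted p = 0.0561). With the block Dusp8 passed in Cpt2PparaDKO against Cpt2KO (-1.10, adjusted p = 0.0458) and Jun in Cpt2KO against Cpt1DKO (0.89, adjusted p = 0.0328), and no other member call changed. With 4 libraries a group, single calls near the threshold, such as those of Fos and Egr1, hold no better than these ranges show.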

Other observations

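Of 12 EGF and HGF receptor and ligand genes, 1 rose and 3 fell in Cpt2KO, 3 rose and 2 fell in TKO, and 4 rose and 1 fell in Cpt2PparaDKO against Control (edgeR). These were 33.3%, 41.7% and 41.7% of the list, where 33.4%, 27.4% and 32.5% of all genes were called. Egfr, the EGF receptor, fell from 333 CPM in Control to 135 CPM in Cpt2KO (-1.30, SE 0.35, adjusted p = 0.00745), and Met, the HGF receptor, from 115 to 67.3 CPM (-0.77, SE 0.17, adjusted p = 0.00115). The ligand gene Btc rose from 1.59 CPM in Control to 9.98 CPM in Cpt2PparaDKO (2.63, SE 0.43, adjusted p = 1.4e-04), and was higher there than in Cpt2KO by 1.88 (SE 0.41, adjusted p = 0.00223).

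Of 12 relatives and partners of MYC, 1 rose and 4 fell in Cpt2KO, 4 fell in TKO and 2 fell in Cpt2PparaDKO, which is 41.7%, 33.3% and 16.7% of that list beside the same shares of all genes. Mlxipl, which encodes the glucose-responsive factor ChREBP, fell from 214 CPM in Control to 113 CPM in Cpt2KO (-0.92, SE 0.20, adjusted p = 0.00143), 89.4 in TKO and 109 in Cpt2PparaDKO. Its partner Mlx fell from 28.8 to 19.0 CPM in Cpt2KO (-0.60, SE 0.10, adjusted p = 1.1e-04). Of 8 heat shock genes, 3 rose in Cpt2KO (37.5%), 2 in TKO (25.0%) and 1 in Cpt2PparaDKO (12.5%), where 16.2%, 13% and 14.9% of all genes rose, and Hspb1, a small heat shock protein phosphorylated downstream of p38, rose in each, from 15.3 CPM in Control to 78.1 CPM in Cpt2KO (2.35, SE 0.42, adjusted p = 3.7e-04).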
